A study of Mus musculus with 6 samples.

Results

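Cardiac fibroblasts that received a Cre-carrying adenovirus (Ad-Cre) were compared with cardiac fibroblasts that received the same kind of virus with green fluorescent protein (Ad-GFP), by the number of RNA sequencing reads assigned to each gene. The comparison holds 2 of the study's 6 libraries, 1 for each virus, and it covers genes with at least 20 reads in 1 of the 2 libraries. That rule kept 15550 genes of the 57180 in the table, of which 26409 had a read in a cardiac library. Both libraries were labelled as mouse cardiac fibroblasts of WT genotype, grown in DMEM with 10% FBS and taken 48 h after the virus was added. The Ad-GFP library was labelled as the control and the Ad-Cre library as GATA4 KO. The labels give no strain, age, sex or number of animals, and no allele of Gata4 on which Cre could act. The other 4 libraries are lung and tail tip fibroblasts with the same viruses. With 1 library per virus a difference has no replicate check, no test was made, and every interval covers counting error only. A difference between the 2 cultures, dissections or preparations cannot be told apart from one between the viruses.

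Fibroblasts of the heart make and remodel the matrix around heart muscle cells, and many of them come from the epicardium, the epithelial covering of the heart. They carry a set of transcription factors of the developing heart, among them Gata4, Tcf21 and Tbx20. Like other cells they meet damaged protein with heat shock chaperones, driven by the factor HSF1, and oxidants with antioxidant enzymes, driven by the factor NRF2.

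Defining fibroblast genes were abundant in both libraries. The collagen gene Col1a1 stood at 8635 and 6048 CPM (counts per megaread of the library, scaled with TMM factors, Ad-GFP first here and in every pair below), the intermediate filament gene Vim at 6661 and 3549 CPM, and the receptor gene Pdgfra at 268 and 408 CPM. Tcf21, which marks heart fibroblasts and epicardium, had 1148 and 338 reads and was at 0 in all 4 other libraries. Gata4 RNA (ENSMUSG00000021944) was counted with 4769 and 4561 reads, a ratio of 1.02 (95% interval 0.978 to 1.06). The counted RNA of the named target thus did not stand lower in the Ad-Cre library. A count over the whole gene does not show whether a part of the gene was removed. Genes of other cell types were counted in both libraries. The macrophage gene Lyz2 had 26527 and 14685 reads and the endothelial gene Pecam1 84 and 63 reads. The macrophage and leukocyte list summed to 1286 and 802 CPM. Of 14 heart muscle genes 9 had at least 20 reads, and the list summed to 81.7 and 68.5 CPM. Among the 9 genes 4 were at least 2-fold higher and 1 lower (44.4% and 11.1%, against 10.5% and 7.43% of all genes). With at least 100 reads asked for 1 of 3 was higher. Tnnt2, Nppb, Myh6 and Myh7, described below, were among the 9, while Myl2, Myl3 and Pln had no reads. Xist, made in female cells, had 22540 and 26371 reads, and the Y-linked gene Ddx3y had 836 and 562 reads, so each library holds RNA of cells of both sexes. Total counts were 33779069 and 30034441, and the mitochondrial genes took 1.90% and 2.65% of them. A gene at 0 reads may hold up to 3 counts, which is 0.0921 CPM in the Ad-GFP and 0.0981 CPM in the Ad-Cre library.

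Of the 15550 genes 17.9% stood at least 2-fold apart, 1631 of them higher (10.5%) and 1156 lower (7.43%) in the Ad-Cre library, on a log2 scale with a prior count of 2. The median log2 ratio over all of them was -0.01. In the gene lists below, counts are over the members with at least 20 reads unless another number is given. The lung pair had 3.24% and the tail tip pair 1.45% of genes that far apart, over 13880 and 15213 genes chosen by the same rule. Most of the cardiac differences lay at low counts: 47.6% of the 3984 genes with 20 to under 100 reads were at least 2-fold apart, against 13.1% of 5356 genes with 100 to under 1000 reads. Among genes of 1000 to under 10000 reads the share was 2.97% (65 higher and 102 lower of 5632), and from 10000 reads up it was 3.98% (6 higher and 17 lower of 578). At every depth the share was larger in the cardiac pair than in the lung and tail tip pairs, as the plot of shares by read depth shows. The counting interval lay wholly beyond 2-fold for 889 higher and 597 lower genes, and 187 genes with at least 20 reads in the Ad-Cre library had none in the Ad-GFP library, against 100 the other way.

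**Figure D1:**
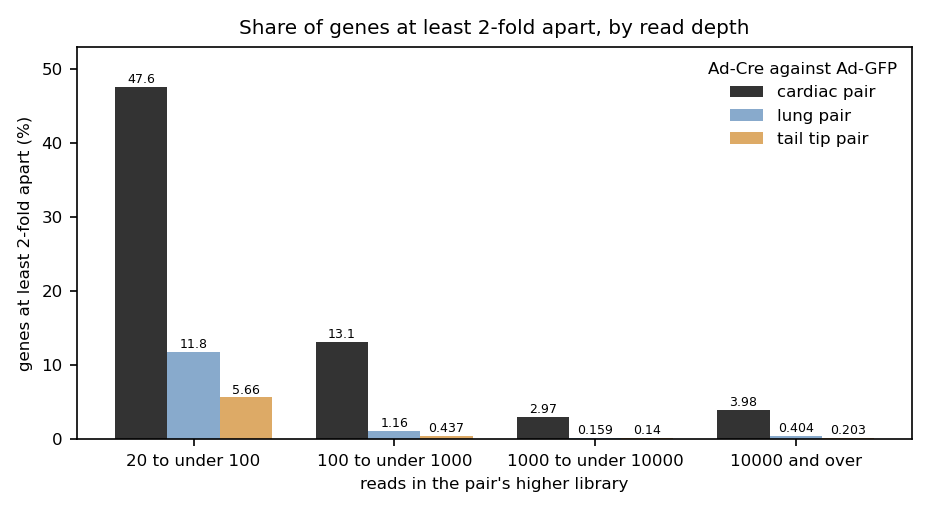
Bars give the percentage of genes at least 2-fold apart between the Ad-Cre and Ad-GFP libraries (vertical axis) in 4 bands of read depth (horizontal axis), for the cardiac, lung and tail tip pairs. The cardiac bars run from 47.6% at 20 to under 100 reads to 3.98% at 10000 reads and over and are the highest in every band.

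The ratios also moved with properties of the transcripts. With genes in 5 equal groups by GC content, the group of lowest GC had a median log2 ratio of 0.17 and the group of highest GC -0.25. By transcript length the medians ran from -0.12 in the shortest group to 0.10 in the longest. Processed pseudogenes, copies of genes whose reads are hard to place, had a median of 0.62, with 205 of 568 at least 2-fold higher and 70 lower. With ratios centred by GC content 24 of the 60 genes with the highest and lowest ratios by read depth moved beyond their counting interval, and with ratios centred by transcript length 16, and none changed sign.

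At 10000 reads and over the 3 genes with the highest ratios encode proteins of the matrix or of its turnover. Timp3, an inhibitor of matrix metalloproteinases that binds to the matrix, had 7474 and 31730 reads, or 229.5 and 1038 CPM, a ratio of 4.52 (95% interval 4.41 to 4.64). In lung fibroblasts Timp3 stood at 55.9 and 78.9 CPM and in tail tip fibroblasts at 159 and 221 CPM, so the cardiac Ad-Cre library held the highest level of the 6. Tinagl1, a secreted matrix protein, stood at 249.7 and 682 CPM (2.73-fold higher), and Loxl4, a lysyl oxidase that crosslinks collagen and elastin, at 139 and 347 CPM (2.49-fold). Tinagl1 was also higher in the lung pair, at 36.1 and 90.6 CPM. Slc5a3, which carries inositol into cells under osmotic stress, had 5560 and 12850 reads (2.46-fold), and Nfat5, the transcription factor of the osmotic response, had 6750 and 12107 reads (1.91-fold). S100a6, a calcium-binding protein, stood 2.10-fold higher, Lars2, the mitochondrial leucyl-tRNA synthetase, 2.02-fold, Ahnak, a very large scaffold protein, 1.92-fold, Tgoln1, a trans-Golgi protein, 1.93-fold, and Ccng1, cyclin G1, 1.87-fold. Of these 10 genes Tgoln1, Ahnak, Nfat5 and Ccng1 were short of 2-fold.

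**Figure D2:**
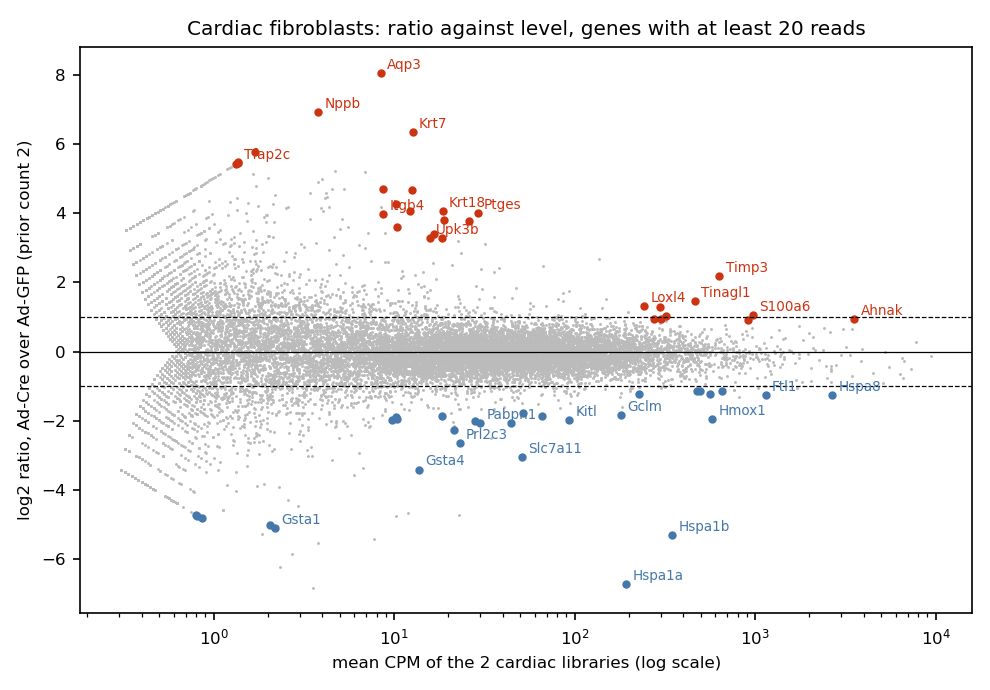
Each grey point is 1 of 15550 genes, placed by its mean CPM in the 2 cardiac libraries (horizontal, log scale) and its log2 ratio of Ad-Cre over Ad-GFP (vertical), with dashed lines at 2-fold. Coloured points are the highest (red) and lowest (blue) genes of 3 depth bands: Hspa1a and Hspa1b lie far below all other abundant genes, and Timp3 lies above them.

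The 10 abundant genes with the lowest ratios included stress genes, among them 3 of the heat shock response. Hmox1, heme oxygenase, which breaks down heme and is a classic NRF2 target, had 29988 and 7275 reads and stood 3.87-fold lower. In CPM it was at 921 and 238, against 212 and 209 in the lung pair and 258 and 224 in the tail tip pair. The cardiac Ad-GFP library was thus the one that stood apart for Hmox1. Ftl1, the ferritin light chain that stores iron, stood 2.38-fold lower, and Sqstm1, an adaptor of autophagy that also releases NRF2, 2.20-fold lower. Cdh2, N-cadherin, an adhesion molecule of mesenchymal and heart muscle cells, had 25646 and 10355 reads (2.33-fold lower), the protease inhibitor gene Serpinb9b 10324 and 4133 reads (2.35-fold), and Inppl1, a phosphoinositide phosphatase, 21283 and 9087 reads (2.20-fold). The ribosomal protein gene Rpl13, which has processed copies in the genome and an uncertain count for that reason, stood 2.22-fold lower. The remaining 3, Hspa1a, Hspa1b and Hspa8, are described next.

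Hspa1a and Hspa1b encode the inducible Hsp70 chaperones, which refold damaged proteins, and lie close together on chromosome 17. The 150 bases before their start sites are shown with those of Hspb1 because they hold the inverted repeat that heat shock factor is known to bind (searched as GAANNTTC, which reads the same on both strands, and set in capitals). The sequences are RefSeq's on GRCm38.p6, at chr17:34972157-34972306 and chr17:34959239-34959388 on the minus strand and chr5:135887769-135887918 on the plus strand, from the 150th base before the start to the last.
Hspa1a: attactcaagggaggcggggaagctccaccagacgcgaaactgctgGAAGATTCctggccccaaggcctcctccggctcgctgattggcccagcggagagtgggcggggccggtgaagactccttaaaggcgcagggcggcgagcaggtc
Hspa1b: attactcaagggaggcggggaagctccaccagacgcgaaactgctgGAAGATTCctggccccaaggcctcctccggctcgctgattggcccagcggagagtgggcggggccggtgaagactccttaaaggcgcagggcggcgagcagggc
Hspb1: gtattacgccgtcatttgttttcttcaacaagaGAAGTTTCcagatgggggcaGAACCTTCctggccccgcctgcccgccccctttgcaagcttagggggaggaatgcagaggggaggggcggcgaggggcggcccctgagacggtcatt
The first pair is identical at 149 of 150 bases, and Hspb1 holds the motif at 2 places. In the 250 bases before the start it was found for 8 of 24 chaperone genes that have a promoter in the table, and for 7.73% of all 27025 genes there.

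Hspa1a had 12509 and 109 reads and Hspa1b 21976 and 519 reads. The Ad-GFP library was higher by a factor of 108 (95% interval 89.2 to 131) for Hspa1a and 39.8 (95% interval 36.4 to 43.5) for Hspa1b. The coding sequences of this pair are nearly alike, so the split between them is uncertain, but both stood lower. In CPM Hspa1a was at 384 and 3.57 in the cardiac pair, 2.50 and 3.35 in the lung pair and 8.05 and 7.27 in the tail tip pair, so the cardiac Ad-GFP library was the one that stood apart from the other 5. The same held for Hspa1b, at 675 and 17.0, 12.4 and 12.7 and 32.5 and 23.1 CPM.

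Other chaperones differed less and mostly in the same direction. Hspa8, the constitutive Hsc70, had 122362 and 48079 reads and stood 2.39-fold lower in the Ad-Cre library. Its cochaperone gene Dnajb1 had 3990 and 1824 reads (2.05-fold) and Cryab, the small heat shock protein of muscle and lens, 13859 and 6371 reads (2.04-fold). Of the list of 29 chaperone genes 5 were at least 2-fold lower (17.2%, against 7.43% of all genes) and 0 higher, 25 had a ratio below 1, and the median log2 ratio was -0.50. The medians of the same list were 0.04 in the lung pair and 0.03 in the tail tip pair. With library totals in place of TMM scaling 3 were at least 2-fold lower, since Dnajb1 and Cryab lie at the edge. Bag3 had 6446 and 3113 reads, Hsph1 16759 and 9300 reads, Hsp90aa1 76985 and 51905 reads and Hspb1 4095 and 2257 reads, all less than 2-fold apart. Hsf1, the gene of the heat shock factor itself, stood at 40.9 and 33.4 CPM.

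**Figure D3:**
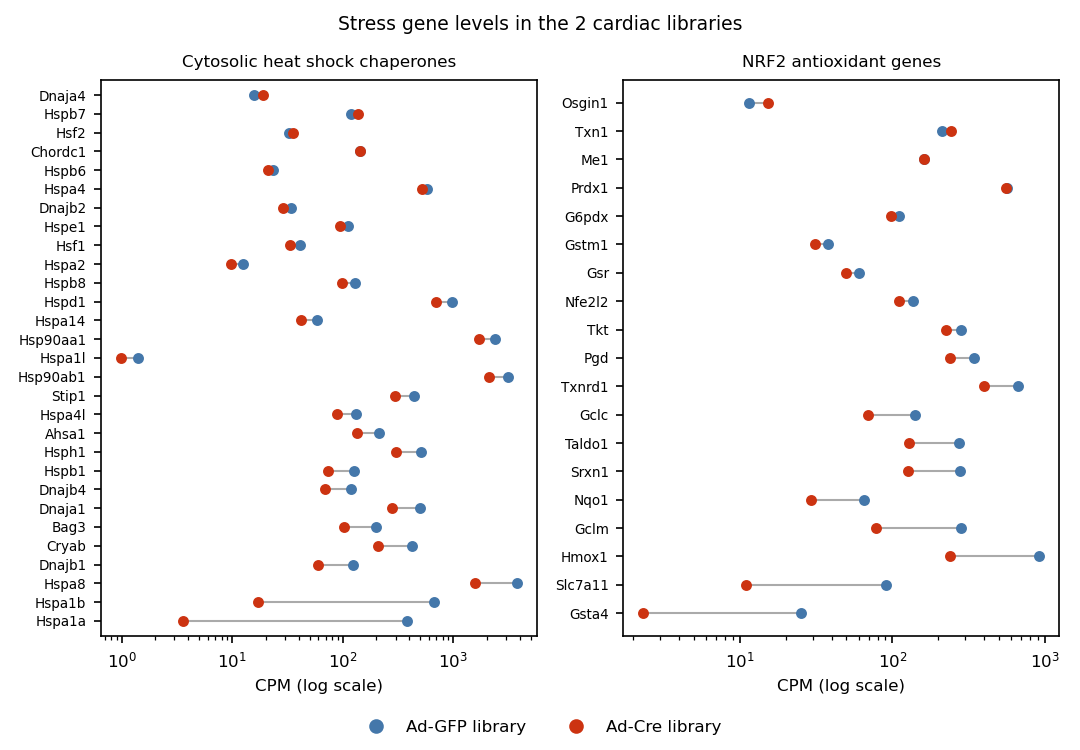
CPM (log scale) of each gene of 2 lists in the cardiac Ad-GFP (blue) and Ad-Cre (red) libraries, sorted by ratio: 29 cytosolic heat shock chaperones on the left and 19 NRF2 antioxidant genes on the right. Hspa1a lies at 384 and 3.57 CPM, and 16 of the 19 antioxidant genes have the red point to the left of the blue.

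Antioxidant genes of the NRF2 pathway stood lower as well. NRF2 binds the antioxidant response element, and the 150 bases before Gclm (chr3:122245407-122245556) and Srxn1 (chr2:152105374-152105523, both GRCm38.p6, plus strand) are shown because both genes stood lower and each holds a match to a form of it. The capitals mark the reverse complement of TGACNNNGC in Gclm and TGANTCAGC in Srxn1.
Gclm: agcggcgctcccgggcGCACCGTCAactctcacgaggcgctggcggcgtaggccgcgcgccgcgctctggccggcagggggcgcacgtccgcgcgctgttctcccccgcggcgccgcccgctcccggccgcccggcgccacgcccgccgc
Srxn1: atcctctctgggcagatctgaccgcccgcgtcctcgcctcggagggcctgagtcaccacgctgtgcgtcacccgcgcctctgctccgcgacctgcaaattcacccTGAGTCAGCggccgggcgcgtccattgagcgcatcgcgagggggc
On either strand of the 250 bases before the start TGACNNNGC was found for 5 of 15 genes of the list with a promoter in the table and for 11.5% of all genes, and TGANTCAGC for 3 of 15 and 1.17%. A place can match both forms, as it does in Prdx1.

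Gclm and Gclc encode the 2 subunits of glutamate-cysteine ligase, the first step of glutathione synthesis. Gclm had 9187 and 2402 reads (3.59-fold lower in the Ad-Cre library) and Gclc 4602 and 2130 reads (2.03-fold). Slc7a11, the transporter that brings in cystine for the same pathway, had 2979 and 336 reads and stood lower by a factor of 8.32 (95% interval 7.43 to 9.35). RNA of the cystine transporter and of both ligase subunits therefore stood lower together. Gsta4, a glutathione transferase for products of lipid oxidation, had 823 and 71 reads (10.9-fold), Nqo1, a quinone reductase, 2111 and 896 reads (2.21-fold), and Srxn1, which repairs oxidised peroxiredoxins, 9071 and 3861 reads (2.21-fold). Of 19 genes of the list 8 were at least 2-fold lower (42.1%, against 7.43% of all genes and 1.81% of genes with 1000 to under 10000 reads) and 0 higher, with Hmox1 and Taldo1 as the other members lower. The median log2 ratio was -0.51, against -0.08 in the lung pair and -0.10 in the tail tip pair. Members less than 2-fold apart included the thioredoxin reductase gene Txnrd1, at 670.4 and 397 CPM, the peroxiredoxin gene Prdx1, at 566 and 559 CPM, and Nfe2l2, which encodes NRF2, at 136 and 111 CPM. The summed level of the 19 genes was 4668 and 2815 CPM. Gsta1, another glutathione transferase, outside the list and at low counts, had 141 and 2 reads.

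Genes of the stress response driven by ATF4 and of the unfolded protein response, which answers misfolded protein in the endoplasmic reticulum, passed 2-fold singly. Of 32 genes 2 were at least 2-fold lower, Slc7a11 and Trib3, a pseudokinase induced by ATF4 (504 and 120 reads, 3.94-fold lower). Dnajb9, an endoplasmic reticulum cochaperone, was the one gene higher (1014 and 2521 reads, 2.65-fold). The median log2 ratio was -0.24, but the 2 parts of the list differed. For the 14 ATF4 genes the median was -0.52, and for the 18 endoplasmic reticulum chaperone genes -0.05. Hspa5, the main chaperone of that compartment, stood at 1079 and 969.9 CPM.

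Immediate early genes, which respond within minutes to growth factors and stress, stood lower in part. Of 25 genes 6 were at least 2-fold lower and 0 higher, with a median log2 ratio of -0.57 (0.26 in the lung pair and -0.21 in the tail tip pair). They were Nr4a2, an orphan nuclear receptor (536 and 129 reads), the AP-1 subunit genes Jund (1132 and 333) and Junb (3998 and 1711), Ier2 (2436 and 823), Myc (4461 and 1895) and Egr2 (552 and 258). Fos, at 26.2 and 18.9 CPM, and Egr1, at 128 and 147 CPM, did not follow them past 2-fold. The share lower, 24.0%, stands beside 7.43% of all genes.

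Genes of epithelial cells stood higher in the Ad-Cre library. Simple keratins are the intermediate filaments of single-layered epithelia, and desmosomes anchor them at cell contacts. Krt7 had 8 and 768 reads (ratio 102 (95% interval 51.6 to 238)), Krt18 67 and 1075 reads (17.1-fold), its partner Krt8 12 and 231 reads (20.5-fold), Krt80 81 and 1080 reads (14.2-fold) and Krt19 153 and 498 reads (3.47-fold). All 5 keratin genes of the list with at least 20 reads were thus at least 2-fold higher. Dsp, desmoplakin, which ties keratins to the desmosome, had 215 and 1758 reads (8.71-fold), and Perp, a desmosome protein and p53 target, 19 and 510 reads (28.6-fold).

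Over the list of simple keratin and desmosome genes 10 of 16 were at least 2-fold higher (62.5%, against 10.5% of all genes) and 1 lower, with a median log2 ratio of 1.74. With at least 100 reads asked for, 8 were higher. The remaining 2 of the list's 18 genes had fewer than 20 reads. The lower gene was Evpl, envoplakin (92 and 27 reads). More abundant plaque genes did not stand higher: Jup, plakoglobin, had 5377 and 3828 reads, and Pkp1, plakophilin 1, 3509 and 2421 reads. The summed level of the list was 438.7 and 529.8 CPM, with Jup and Pkp1 among its abundant members. The list had a median of 1.05 in the lung pair and 0.31 in the tail tip pair, and in the lung pair Krt7 stood at 0.0343 and 3.19 CPM and Krt18 at 0.0343 and 0.857 CPM.

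Some integrins and laminins stood higher in the Ad-Cre library, while most were less than 2-fold apart. Itga3, the integrin chain that binds epithelial laminin, had 1197 and 7180 reads (ratio 6.39 (95% interval 6.01 to 6.80)), and Itgb4, the chain of hemidesmosomes, 32 and 502 reads (16.7-fold). Lamb3 and Lama3, chains of that laminin, had 9 and 269 and 24 and 101 reads. Of 32 integrin and laminin genes 8 were at least 2-fold higher (25%, against 10.5% of all genes) and 0 lower, with a median log2 ratio of 0.10. The others were Itgb6, Itgb7, Lama1 and Lamc3, each with at most 94 reads, and of genes at 20 to under 100 reads 29.3% were at least 2-fold higher. With at least 100 reads asked for 4 of 25 were higher, against 462 of 11566 genes in all. Abundant members were close to equal: Itgb1, the common beta chain, stood at 3043 and 3332 CPM, and Itga5, the fibronectin receptor chain, at 909 and 877 CPM. In the lung pair Itga3 stood at 3.46 and 28.9 CPM and in the tail tip pair at 4.05 and 3.23 CPM. Itgb4 was higher in the lung pair too, at 0.926 and 2.65 CPM. Over the list 6 of 29 genes were at least 2-fold higher in the lung pair and 0 lower, against 1.53% of all genes higher there. In the tail tip pair 0 of 29 were higher and 0 lower.

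**Figure D4:**
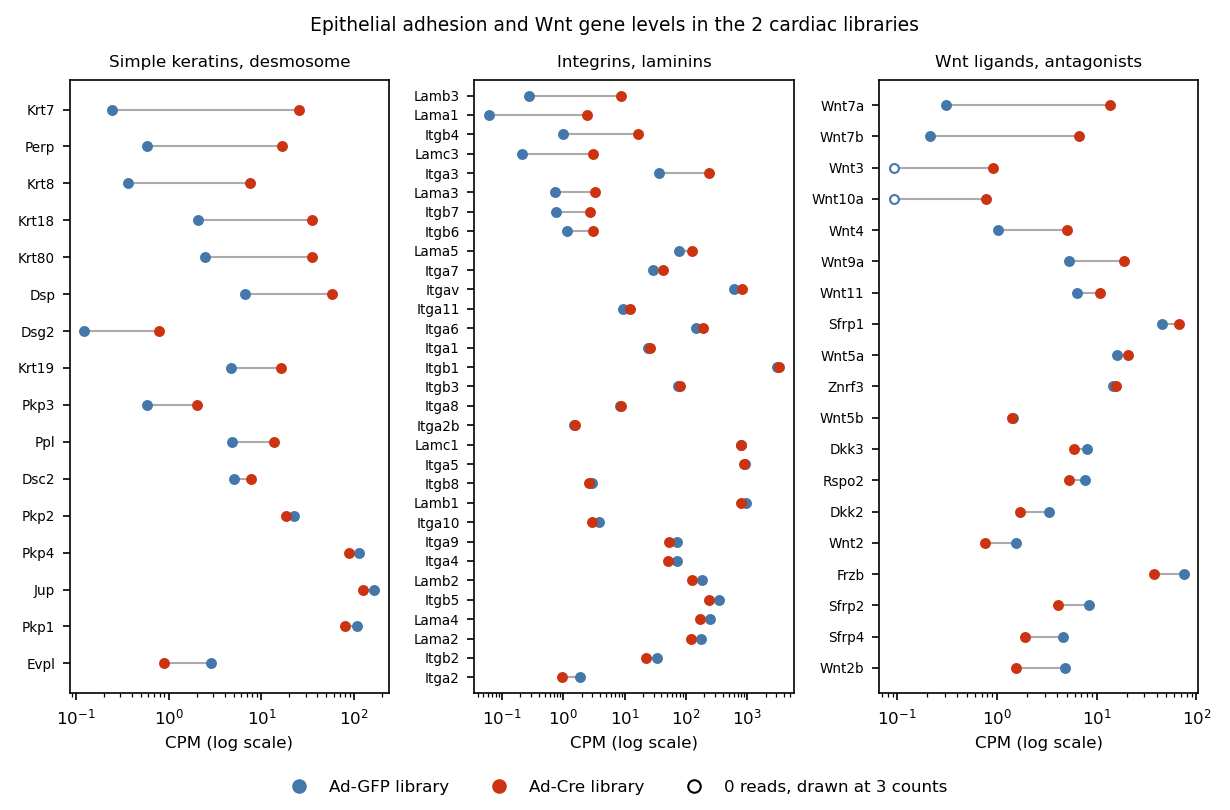
CPM (log scale) of genes in the cardiac Ad-GFP (blue) and Ad-Cre (red) libraries, sorted by ratio, for simple keratin and desmosome genes, integrins and laminins, and Wnt ligands and antagonists. Open points had 0 reads and are drawn at 3 counts. Krt7, Lamb3, Itgb4, Wnt7a and Wnt7b head their panels, while abundant members such as Itgb1 and Jup lie close together.

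Other defining genes of epithelial cells were thinly counted. Of 30 epithelial junction and identity genes 14 had at least 20 reads, and 5 of these were at least 2-fold higher and 0 lower (median log2 ratio 0.63), and of all genes at 20 to under 100 reads 29.3% were higher. Epcam, an adhesion molecule of epithelia, had 1 and 47 reads, Cdh1, E-cadherin, 12 and 31 reads, and St14, the epithelial protease matriptase, 41 and 279 reads. Ocln and Ap1m2 had 0 reads in both libraries. With at least 100 reads asked for, St14 was the only member higher. Among 16 keratinocyte genes 6 had at least 20 reads: Krt17 had 0 and 74 reads and Krt16 0 and 24 reads, while the cornified envelope genes Sprr1a (5272 and 1498 reads) and Ivl (477 and 225 reads) stood the other way, and Trp63, the factor of basal keratinocytes, had no read in either. In bulk RNA more cells of a type and more RNA per cell cannot be told apart.

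Mesothelial genes, made by the cells that cover the heart and other organs, did not move in one direction. Upk3b had 95 and 878 reads (9.84-fold higher), Upk1b 184 and 1269 reads (7.35-fold) and Msln, mesothelin, 209 and 842 reads (4.29-fold), whereas Lrrn4 had 1048 and 288 reads (3.42-fold lower). Wt1, the factor of epicardium and mesothelium, stood at 9.43 and 8.83 CPM. Of 12 genes with at least 20 reads 5 were higher and 1 lower (median log2 ratio 0.82), against 10.5% and 7.43% of all genes. With at least 100 reads asked for 3 of 9 were higher, against 462 of 11566 genes in all, and the median was 0.02.

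Wnt ligands signal through Frizzled receptors to beta-catenin and other routes, and secreted antagonists hold them back. Wnt7a had 10 and 411 reads (43.8-fold higher), Wnt7b 7 and 203 reads (30.9-fold), Wnt9a 173 and 572 reads (3.52-fold) and Wnt4 33 and 154 reads (4.97-fold). Of 12 ligand genes with at least 20 reads 6 were at least 2-fold higher and 1, Wnt2b (155 and 47 reads), lower, against 10.5% and 7.43% of all genes. Of 7 antagonist genes 0 were higher and 3 lower, against 10.5% and 7.43% of all genes. Among them were the secreted decoys Sfrp2 (272 and 126 reads) and Sfrp4 (151 and 58 reads). Sfrp2 and Frzb (2438 and 1142 reads) lay at the edge of 2-fold. Of the targets of the beta-catenin route Axin2 had 5 and 46 reads and Lef1 53 and 18 reads, in opposite directions. Over all 42 genes 9 were higher (21.4%, against 10.5% of all genes and 29.3% of those at 20 to under 100 reads) and 6 lower (14.3%, against 7.43%), with a median log2 ratio of 0.01. With at least 100 reads asked for 4 of 33 were higher, against 462 of 11566 genes in all. With library totals, or with ratios centred by GC content or by length, 3 were lower. In the lung pair 4 of 27 genes of the list were at least 2-fold higher and 0 lower, against 1.53% of all genes higher there. In the tail tip pair 0 of 40 were higher and 0 lower.

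Matrix genes were mixed, with some abundant collagens lower in the Ad-Cre library. Col3a1, a fibrillar collagen of the heart, had 45564 and 20483 reads (2.09-fold lower), Col15a1, a basement membrane collagen, 13201 and 5955 reads (2.08-fold), and the more abundant Col1a1 281170 and 184887 reads (1.43-fold). Of 28 collagen genes 5 were at least 2-fold lower and 3 higher, and 19 had a ratio below 1, with a median log2 ratio of -0.54 (0.25 in the lung pair and -0.13 in the tail tip pair). These are 17.9% lower and 10.7% higher, against 7.43% and 10.5% of all genes. With library totals, with a prior count of 5 or with ratios centred by GC content 3 were lower, and with ratios centred by length 8. The fibrillar collagens had a median of -0.85 and those of the basement membrane -0.65. The 3 higher genes, Col27a1, Col8a2 and Col6a5, had at most 336 reads. Vim stood 1.88-fold lower, the surface marker Thy1 1.73-fold lower and Pdgfra 1.52-fold higher, so the fibroblast markers did not move as one. Of 17 such markers 2 were at least 2-fold lower (11.8%, against 7.43% of all genes) and 0 higher. Other matrix lists were mixed. Of 21 elastic fibre and lysyl oxidase genes 3 were at least 2-fold higher (14.3%, beside 10.5% of all genes) and 0 lower. Their median log2 ratio was -0.24. Of 29 matrix proteases and inhibitors 2 were higher and 2 lower. Of 16 matricellular protein and fibronectin genes 2 were lower (12.5%, against 7.43% of all genes) and 0 higher, with a median of -0.27. Of 9 small leucine-rich proteoglycans 2 were lower (22.2%, against 7.43% of all genes) and 0 higher, with a median of -0.68. With ratios centred by GC content 5 of the 9 were lower, and with at least 100 reads asked for 1 of 6, with a median of -0.36. The summed level of the proteoglycan list was 3926 and 4092 CPM.

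Genes of the growth factor TGF-beta differed past 2-fold in single members. Of 9 target genes 1 was at least 2-fold lower and 0 higher. This was Ccn2, a matricellular protein, with 74580 and 33716 reads (2.08-fold lower). The ligand gene Tgfb3 had 3009 and 1377 reads (2.05-fold lower). Of 11 receptor genes 1 was at least 2-fold higher and 0 lower: Acvrl1, a type I receptor, had 669 and 2272 reads (3.62-fold higher). The 9 target genes had a median log2 ratio of -0.73 and the 11 receptor genes 0.53. Of 40 genes 5 were at least 2-fold lower, 3 of them with library totals or with ratios centred by GC content, and 2 higher (12.5% and 5%, against 7.43% and 10.5% of all genes). The contractile genes of myofibroblasts had a median of -0.29: Acta2, smooth muscle actin, stood at 2795 and 2116 CPM, Actn1, which crosslinks actin, at 2351 and 1270.3 CPM, and Des, the muscle intermediate filament, higher with 185 and 570 reads.

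Most transcription factors of the cardiac mesenchyme had a ratio below 1, and few were 2-fold apart. Tcf21 stood lower by a factor of 3.19 (95% interval 2.82 to 3.61), and Hand2, a factor of heart chamber growth, had 857 and 370 reads (2.17-fold lower). Tbx20, a T-box factor, had 21516 and 12408 reads (1.63-fold). Of 15 such genes 2 were at least 2-fold lower (13.3%, against 7.43% of all genes) and 0 higher, 13 had a ratio below 1, and the median log2 ratio was -0.60 (0.07 in the lung pair and -0.06 in the tail tip pair). Tbx18, an epicardial factor, stood at 68.8 and 75.0 CPM. Among the GATA factors Gata6 had 2816 and 1315 reads and Gata3 279 and 128 reads, both just past 2-fold lower, and neither was so with library totals. The cofactor genes stood apart: Zfpm2 had 2514 and 1686 reads and Zfpm1 617 and 884 reads.

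Interferon-stimulated genes, the antiviral program of most cells, stood lower in part, at modest counts. The 150 bases before Rsad2, which encodes the antiviral enzyme viperin (chr12:26456453-26456602 on the minus strand, GRCm38.p6), are shown because they hold the repeat that interferon-regulated factors are known to bind. The repeat was searched as GAAA, any 2 bases and again GAAA, and the capitals mark its reverse complement.
Rsad2: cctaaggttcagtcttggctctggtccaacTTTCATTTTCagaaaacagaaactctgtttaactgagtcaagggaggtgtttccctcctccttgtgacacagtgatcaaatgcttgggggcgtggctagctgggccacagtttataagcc
On either strand of 250 bases it was found for 11 of 24 interferon-stimulated genes with a promoter in the table and for 3.46% of all genes. Rsad2 had 145 and 56 reads, Irf7, the factor that amplifies the response, 423 and 167 reads (2.38-fold lower), Irf9, a subunit of the interferon-activated complex, 849 and 388 reads (2.05-fold), and Bst2, which tethers budding viruses, 1711 and 904 reads. Of 34 genes 9 were at least 2-fold lower (26.5%, against 7.43% of all genes) and 0 higher, 28 had a ratio below 1, and the median log2 ratio was -0.52 (0.03 in the lung pair and -0.21 in the tail tip pair). With at least 100 reads asked for 5 of 22 were lower with a median of -0.32, against 429 of 11566 genes in all. Of all genes at 20 to under 100 reads 18.2% were lower. The counting interval lay wholly past 2-fold for 2.

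Some macrophage genes stood lower beside them. C1qc, C1qa and C1qb, the chains of complement C1q, had 809 and 245, 611 and 254 and 964 and 424 reads, and Spi1, the myeloid factor PU.1, 266 and 103. Of 22 macrophage and leukocyte genes with at least 20 reads 4 were at least 2-fold lower (18.2%, against 7.43% of all genes), 1 higher (Cd79a, 28 and 60) and 20 had a ratio below 1. With ratios centred by GC content 2 of 22 were lower, close to the share of all genes. The summed level was 1286 and 802 CPM, and 5 more genes of the list had fewer than 20 reads. The part of macrophages in the interferon, collagen and stress results was not tested. Cytokine genes were mixed: Il11, a cytokine of fibroblasts and epithelia, had 111 and 1023 reads (9.82-fold higher) and Icam1, an adhesion molecule for leukocytes, 153 and 863 reads (6.01-fold), while Tnfsf18 had 1508 and 445 reads (3.18-fold lower) and Tnf 107 and 15 reads.

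Proliferation genes were close to equal. Mki67, made in cycling cells, stood at 458 and 549 CPM, 0 of 25 mitosis genes were 2-fold apart, and their median log2 ratio was 0.02. Of 30 DNA replication genes 1, Rfc3 (1244 and 576 reads), was at least 2-fold lower. The p53 targets were mixed: Pmaip1, the death protein Noxa, had 201 and 1089 reads (5.77-fold higher) and Trp53inp1 1387 and 4418 reads (3.39-fold), Bbc3, the death protein Puma, had 375 and 154 reads (2.29-fold lower), and Cdkn1a and Mdm2 stood at 462 and 605 CPM and 354 and 397 CPM. In all 4 of 21 were at least 2-fold higher and 1 lower, against 10.5% and 7.43% of all genes, with a median of 0.17. Each of the 21 had at least 100 reads, a depth at which 462 of 11566 genes were higher and 429 lower. Sterol and fatty acid synthesis (1 of 33 past 2-fold, lower, median 0.01) and glycolysis and hypoxia genes (1 higher and 1 lower of 27, median -0.21) moved little.

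Of the 13 protein genes of the mitochondrial genome 12 stood higher, by a median log2 ratio of 0.65. The cytochrome b gene mt-Cytb stood at 2684 and 4211 CPM (1.57-fold higher) and mt-Co1, a cytochrome oxidase subunit, at 7065 and 8601 CPM. The exception was mt-Nd6, at 1509.6 and 765 CPM, which lies on the other strand, and the strand setting of the counting is not given in the sources used here. Of the 13 genes 2 were at least 2-fold higher (15.4%, against 10.5% of all genes) and 0 lower. Centred by GC content the list's median was 0.33, with 1 higher and 1 lower. Nuclear genes of the same respiratory complexes had a median of 0.09, with 1 of 24 past 2-fold, and 80 ribosomal protein genes one of 0.07.

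**Figure D5:**
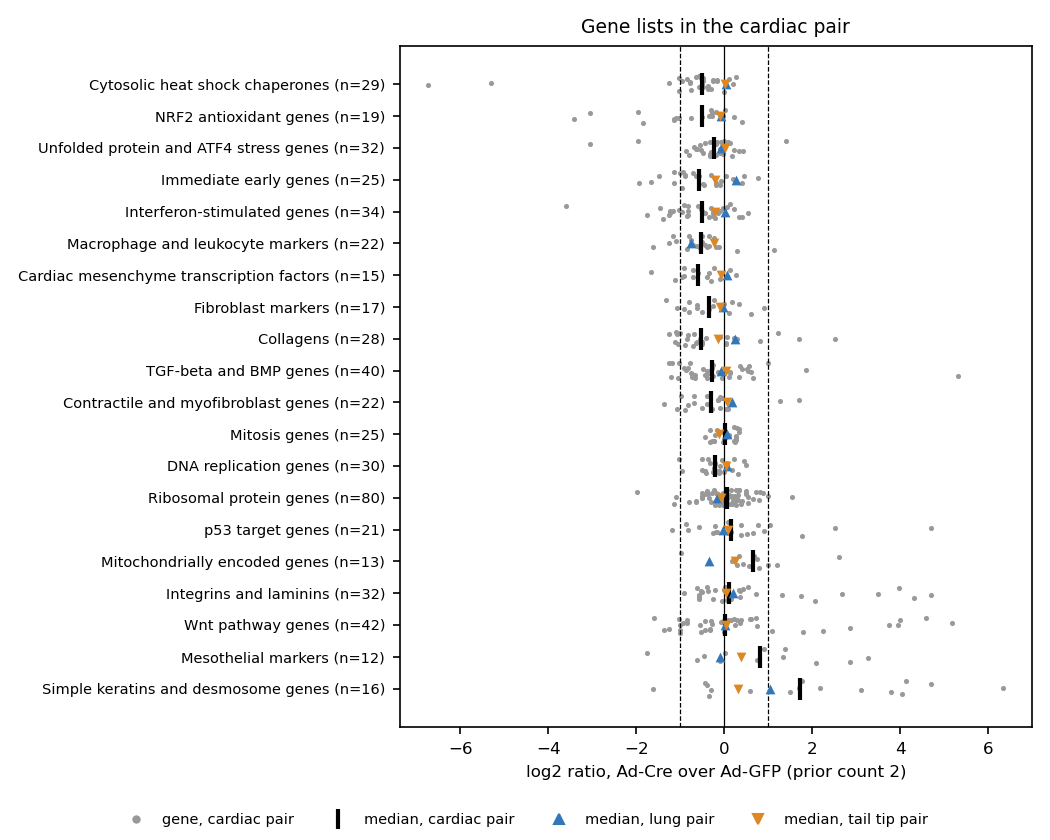
Each row is a gene list with the number of its genes that had at least 20 reads, each grey point is 1 gene's log2 ratio of Ad-Cre over Ad-GFP in the cardiac pair (horizontal axis, dashed lines at 2-fold), and marks show the medians of the cardiac, lung and tail tip pairs. Of the 20 lists drawn, chosen from a longer set, the cardiac median runs from -0.60 for cardiac mesenchyme transcription factors to 1.74 for simple keratins and desmosome genes.

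Further genes of 500 to under 10000 reads that stood highest and lowest belong to several programs. Aqp3, a channel for water and glycerol in epithelia, had 0 and 515 reads, at least 183-fold higher against a floor of 3 counts. Ptges, the prostaglandin E synthase, had 109 and 1672 reads (16.3-fold), and lay at 245 and 213 CPM in the lung pair and 140.5 and 159 CPM in the tail tip pair, so its level in the cardiac Ad-GFP library was the lowest of the 6. The other genes highest at this depth were Megf6 (29 and 742), Tmem40 (31 and 594), the adhesion receptor gene Adgrg1 (43 and 713), the cell adhesion gene Cadm4 (115 and 1490), the phosphatase gene Ptprv (49 and 586) and Spns2, an exporter of sphingosine 1-phosphate (92 and 934). S1pr1, a receptor of that lipid, was among the lowest, with 1461 and 338 reads (4.06-fold lower). In the lung pair Tmem40 (11 and 28 reads), Cadm4 (326 and 588) and Spns2 (3 and 22) were also at least 2-fold higher. Megf6 and Ptprv were well counted in both tail tip libraries, with 739 and 749 and 4061 and 4542 reads.

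Also among the lowest were Kitl, the ligand of the receptor KIT (4834 and 1158 reads, 3.92-fold), Ch25h, an interferon-induced cholesterol hydroxylase (2344 and 525), Ahr, the dioxin receptor (527 and 133), Prl2c3, a prolactin relative (1295 and 194), which has close copies and an uncertain count, and Mex3b, an RNA-binding protein (1162 and 224). Prl2c3 was lower in the lung pair too, at 148 and 62.6 CPM. Pabpn1, a nuclear poly(A)-binding protein (1582 and 353), and Thoc7, a subunit of the RNA export complex THO (3366 and 877), stood lower here and higher in the lung pair (476 and 1039 and 1290 and 2022 reads). Serpinb2, a protease inhibitor, had 2627 and 716 reads, and Crct1 944 and 241 reads.

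Guidance and growth genes included single large differences. Slit2, a guidance ligand, had 9013 and 2804 reads (3.02-fold lower), Ntn4, a netrin of basement membranes, 318 and 55 reads (5.43-fold), and Igfbp4, which binds insulin-like growth factors, 660 and 3479 reads (5.61-fold higher). Among imprinted genes Dlk1 had 85 and 488 reads and Cdkn1c, a cell cycle inhibitor, 44 and 250 reads. Of 15 imprinted genes 4 were at least 2-fold higher (26.7%, against 10.5% of all genes) and 0 lower, with a median of 0.09.

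At under 500 reads, where a 2-fold difference was common, the highest genes had no read in the Ad-GFP library. Nppb, the natriuretic peptide of strained heart muscle, had 0 and 233 reads (at least 82.7-fold higher), Tfap2c, a factor of surface epithelia, 0 and 83 reads (at least 29.5-fold), and Hoxc13 0 and 81 reads (at least 28.8-fold), with Slc25a48 (0 and 104) and Esr2 (0 and 84) beside them. Hoxc13 had 1622 and 1545 reads in the tail tip pair and 3 and 4 in the lung pair. The heart muscle myosin genes Myh6 (0 and 24) and Myh7 (2 and 40) were higher at very low counts, while Tnnt2, cardiac troponin T, had 2442 and 1578 reads. The lowest were Gsta1, Trdc, a T-cell receptor constant gene (132 and 2), Cecr2 (56 and 0, at least 17.5-fold lower), Myrfl (53 and 0) and Chkb (52 and 0).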

How the data were processed

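Per the labels' protocols, TRIzol lysates of the transduced cells gave polyadenylated RNA for sequencing. The authors deposited unnormalised whole-number counts of reads per gene. The submitters' processing notes name STAR 2.0.7 and the mm39 build. Counting tool, annotation and strand setting are not given in those sources, so reads of overlapping or near-identical genes may be mixed. Per the labels, the count matrix carries a title on another subject, and libraries were matched by column name. Symbols came from GENCODE M21 (51884 of 57180 identifiers matched).

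Counts were scaled with edgeR 4.0.16 (R 4.3.3) TMM factors over all 6 libraries, from 18143 genes kept by filterByExpr (minimum count 10). The factors were 0.964 for the cardiac Ad-GFP and 1.02 for the Ad-Cre library. Log2 ratios used a prior count of 2, ratios of CPM exact conditional binomial 95% intervals, and ratios against 0 reads a floor of 3 counts in that library. Counts of 15550 genes were also simulated with counting error alone, some genes being given a change larger than 2-fold. Of the changed genes 100% were called in the right direction, and of unchanged ones 0.247% passed 2-fold. The simulation held no difference between cultures or preparations, so it gives no rate of false calls for the real libraries. Promoters (RefSeq, GRCm38.p6) were searched on both strands.

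The genes, the 47 lists, the motifs and the alternatives were chosen with earlier results of these data known, and the 2 antioxidant motifs and the GC, length and protein-coding alternatives after these values were seen. Named are the 10 highest and lowest genes with at least 10000 reads in a cardiac library, 15 each with 500 to under 10000, 5 each with 20 to under 500, the GATA genes, and up to 6 members per direction and list with at least 100 reads. Gene models without a proper symbol were not named. Other members were named after their values were seen. Some genes of the lists are counted in them but are not reported here by name.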

Additional observations from a re-analysis of the deposited data

Results flagged for a closer look

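Pabpn1, which encodes a nuclear poly(A)-binding protein, had opposite directions in the cardiac and lung pairs. Its log2 ratio of Ad-Cre over Ad-GFP was -2.07 in cardiac fibroblasts (1582 and 353 reads) and 1.31 in lung fibroblasts (476 and 1039 reads). In tail tip fibroblasts it had 1271 and 709 reads. With 1 library per virus and origin, the difference between the origins was not tested.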

How the results depend on the processing

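Counts of genes at least 2-fold apart, 1631 higher and 1156 lower in the Ad-Cre library, moved mainly with the filter on low counts. With any gene of at least 1 read they were 5040 and 4206, with at least 100 reads 462 and 429, with the counting interval wholly past 2-fold 889 and 597, and over protein-coding genes alone 975 and 764. Other scalings (library totals, DESeq2 1.42.0 size factors, TMM from the 2 cardiac libraries), prior counts of 0.5 and 5, and ratios centred in 20 bins of GC content or length kept both counts within 1.5 times, between 1529 and 1786 higher and between 1029 and 1199 lower. Of the 60 ratios of the genes named by read depth 19 moved beyond their counting interval with library totals, 24 with GC centring and 16 with length centring, and none changed sign. The largest shift of all ratios by a scaling was 0.08 on the log2 scale, with library totals. Of 94 list counts 5 moved by over 1.5 times with library totals, 5 with GC centring, 3 with length centring, 1 with a prior count of 5, and 13 with each of the 2 filters and the interval rule. No paired analysis was possible because each virus has 1 cardiac library. Depth limits ratios under 100 reads most.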
